A study of Saccharomyces cerevisiae with 6 samples.

Results

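The nuclear RNA polymerases of budding yeast are 3 enzymes built from 31 different subunits, and the subject here is the messenger RNA of those 31 genes in a strain without CBC2 and in the wild type. The genes were taken by symbol from the annotation of the array: 7 subunits specific to RNA polymerase I (Pol I), 7 to RNA polymerase II (Pol II), 10 to RNA polymerase III (Pol III), 2 shared by Pol I and Pol III, and 5 present in all 3 enzymes. All 31 had a probe set bright enough to be tested, out of 5257 tested genes. The CBC2 product, together with a larger partner protein, binds the 5′ cap of RNA polymerase II transcripts in the nucleus. Strain Y2685, labelled cbc2Δ, and the isogenic wild-type strain Y255 were each measured on 3 Affymetrix Yeast Genome S98 arrays. Both strains grew at 30 °C in SC medium to log phase at an OD600 of 1, and the labels name no other allele. The series' own design speaks of independent experiments without naming separate cultures or isolates, so p-values here reflect how much these samples vary, which may be technical.

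Pol I transcribes the large ribosomal RNA precursor in the nucleolus, Pol II makes messenger RNAs and most small nuclear and nucleolar RNAs, and Pol III makes transfer RNAs, 5S ribosomal RNA and the U6 RNA. The enzymes share a common plan. The largest and second largest subunits form the catalytic cleft, a pair of alpha-like subunits nucleates assembly, a small zinc-ribbon subunit takes part in transcript cleavage, and a heterodimeric stalk stands near the RNA exit. Pol I and Pol III carry in addition a built-in heterodimer related to the Pol II factor TFIIF, and Pol III a trimer, in part related to TFIIE, that works in promoter opening. In yeast, genes of Pol I and Pol III subunits are known to be regulated with the genes of ribosome assembly.

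The deposited intensities were quantile normalised across arrays, and each value below is such a normalised intensity on a linear scale, so that a gene is compared with itself between strains and not with another gene. CBC2 checked the labels: its intensity was at the floor of 8.25 on all 3 deletion arrays, against 882, 840.3 and 763 on the wild-type arrays, a difference of at least 100-fold (limma adjusted p = 1.18e-08). Arrays of one strain correlated at 0.980 to 0.988 over log2 values, and arrays of different strains at 0.951 to 0.969. Fluidics station 1 handled wild-type replicates 1 and 2, and station 2 handled wild-type replicate 3 and every deletion array. Deletion replicate 2 was scanned on a day of its own. The ratio of 3′ to 5′ signal, which falls toward 1 for intact RNA, was 3.85, 3.67 and 5.13 on the deletion arrays for the SPT15 control probe sets, against 2.48, 3.74 and 3.39 on the wild-type arrays. For ACT1 it was 1.24, 1.42 and 1.02 on the deletion arrays against 1.47, 1.36 and 1.15 on the wild-type arrays. The part of this ratio in the results was not tested.

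More polymerase subunit genes were higher than lower in the deletion strain. Of the 31 genes, 15 rose, 2 fell and 14 were not called at an adjusted p under 0.05 (limma, Benjamini-Hochberg over 6956 tested probe sets). That is 54.8% called, against 32.6% of all tested genes, with 48.4% higher against 16.3% of all genes and 6.45% lower against 16.3% of all genes. The log2 fold changes (deletion minus wild type) of the 31 had a median of 0.52 and ran from -0.56 for RET1 to 1.22 for RPC31, while the median over all tested genes was 0.00375. For 18 of the 31 genes all arrays of one strain lay above all arrays of the other, as they did for 49.8% of all genes. RNA came from whole cultures, so fewer cells with a transcript and less of it per cell cannot be told apart.

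**Figure D1:**
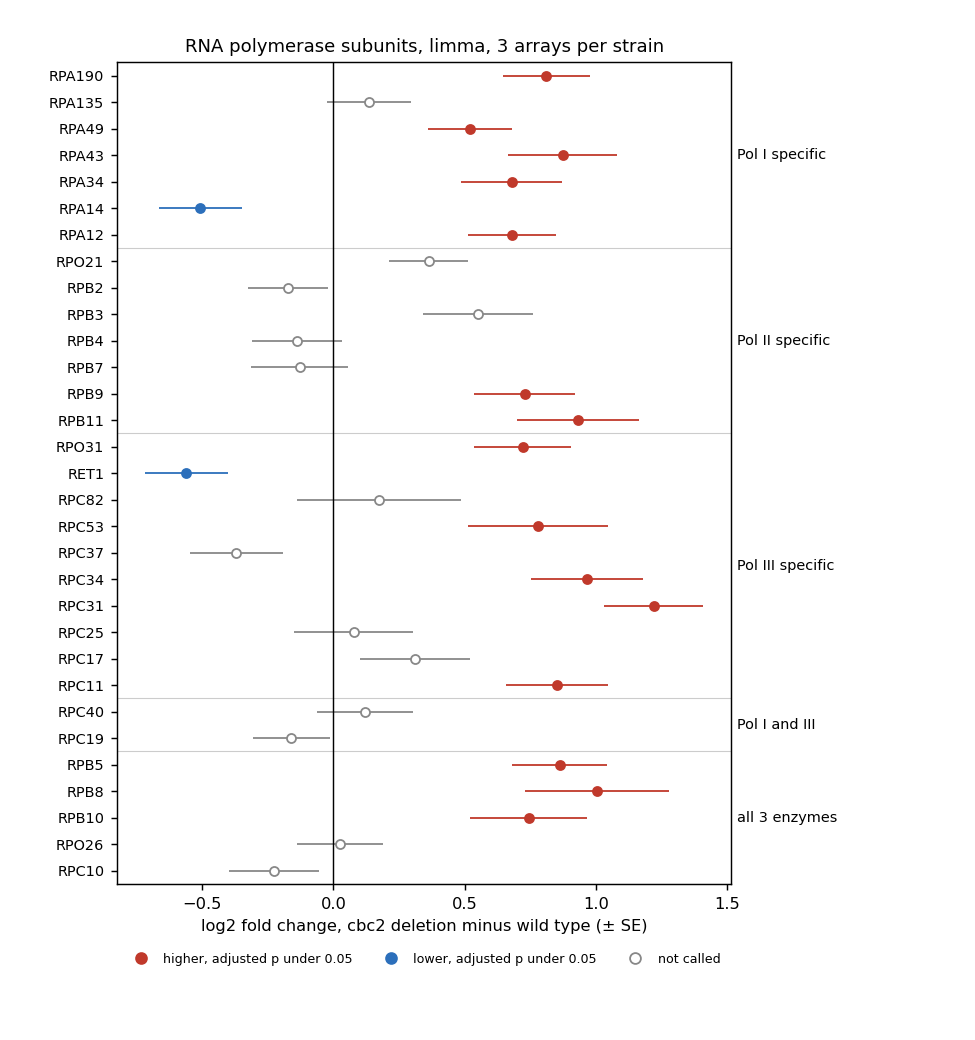
Log2 fold change of the 31 subunit genes (horizontal axis, deletion minus wild type, bars are SE, 3 arrays per strain), grouped by the enzyme that holds the subunit. Red points passed the test as higher (15 genes), blue points as lower (RPA14 and RET1), and open grey points did not pass (14 genes).

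Called genes were found among the specific subunits of each enzyme, and the differences between the enzymes as groups were not tested. Of the 7 Pol I specific genes 5 rose and 1 fell (median log2 fold change 0.68), of the 7 Pol II specific genes 2 rose and none fell (median 0.36), and of the 10 Pol III specific genes 5 rose and 1 fell (median 0.52). That is 85.7%, 28.6% and 60% called, in the same order, against 32.6% of all tested genes. The Pol II share was thus near that of all genes. Of the 5 subunits common to all enzymes 3 rose (median 0.74), and neither of the 2 shared by Pol I and Pol III was called (median -0.02). Counted as whole enzymes with their shared subunits, 9 of 14 Pol I genes, 5 of 12 Pol II genes and 9 of 17 Pol III genes were called, with medians of 0.60, 0.46 and 0.31. These whole-enzyme counts, 64.3%, 41.7% and 52.9% of the genes, have 5 genes in common. The order of the enzymes by their share of called genes was not stable: without deletion replicate 3, 3 of 7 Pol I genes and 5 of 10 Pol III genes were called, and without wild-type replicate 2, 3 of 7 were called in both Pol I and Pol II.

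The size of the count depends on how the arrays were scaled and on single arrays. On the deposited scale, where arrays differ up to 1.89-fold in brightness and the tested probe sets together had a median log2 change of -0.27 (-0.01 after normalisation), none of the 31 was called by limma at an adjusted p under 0.05, the lowest being 0.144 for RPC31. Of all tested probe sets 728 were called on that scale, against 2187 of 6956 as reported. The subunit genes were thus not called more often than other genes there. All 15 risers were still positive on that scale (0.23 to 0.91) and both fallers negative. These genes were picked by their changes on the same arrays, so their signs in this or another setting are no separate support. Of all 31 genes, 17 were positive on the deposited scale, against 23 as reported. When the fit was blocked on the fluidics station, which sets the 3 deletion arrays against wild-type replicate 3 only, 2 genes were called, RPA190 and RPC31, again with all 15 risers positive (0.55 to 1.22). Without wild-type replicate 3 the count was 8, beside 1601 of all tested probe sets, and without deletion replicate 1 it was 10, beside 1476. Within the scan day of the other 5 arrays, that is without deletion replicate 2, 13 genes were called, all higher, beside 1857 probe sets. Whichever of the 6 arrays was left out, 6 genes stayed called: RPA190, RPA43, RPC34, RPC31, RPC11 and RPB5. The share of all tested genes that stayed called in this way was not counted. The other 11 lost the call without at least 1 array (highest adjusted p 0.165, for RPC53).

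The largest subunits, which bind the catalytic magnesium, were higher in the deletion strain in Pol I and Pol III. RPA190 (YOR341W), of Pol I, had intensities of 935, 797 and 933 on the deletion arrays and 592, 470.0 and 462 on the wild-type arrays (log2 fold change 0.81, SE 0.16, adjusted p = 0.00551). RPO31 (YOR116C), of Pol III, had 347, 316 and 443 in the deletion strain against 244, 192 and 232 in the wild type (log2 fold change 0.72, SE 0.19, adjusted p = 0.016). For both genes every deletion array lay above every wild-type array. RPO21 (YDL140C), of Pol II, whose tail carries the heptad repeats, had 1755, 1661 and 1442 in the deletion strain and 1248, 1129.8 and 1403 in the wild type (log2 fold change 0.36, SE 0.15, adjusted p = 0.0924). Its values did not overlap either, but the lowest deletion array and the highest wild-type array were close, and the gene was not called. RPO31 lost its call without wild-type replicate 2 (adjusted p = 0.0579).

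RPA190 is the only subunit gene with several probe sets, 7 in all, and its rise was read from the brightest. The 6 others were dimmer and none of the 4 of them that could be tested was called (log2 fold changes 0.07, 0.21, 0.37 and 0.40). The only other plain probe set, one without a cross-hybridisation suffix, had 8.25, 13.3 and 8.25 on the deletion arrays and 20.8, 10.6 and 20.4 on the wild-type arrays, near the floor. Averaging the plain probe sets on the log2 scale brings the RPA190 change to 0.02 (adjusted p = 0.956).

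Of the second largest subunits, which complete the active site, RET1 alone was called. RET1 (YOR207C), of Pol III, had 659, 672 and 795 in the deletion strain against 989, 965 and 1183 in the wild type (log2 fold change -0.56, SE 0.16, adjusted p = 0.0234). It fell, all 3 deletion arrays lying below the wild-type arrays. RPA135 (YPR010C), of Pol I, had 751, 715 and 611 in the deletion strain and 707, 598 and 585 in the wild type (log2 fold change 0.14, SE 0.16, adjusted p = 0.55). RPB2 (YOR151C), of Pol II, had 1081, 1189.8 and 1005 in the deletion strain and 1381, 1230.2 and 1094 in the wild type (log2 fold change -0.17, SE 0.15, adjusted p = 0.413). In these last genes the strains overlapped and neither was called. The RET1 call was lost with the arrays scaled to one median (log2 fold change -0.41) and without deletion replicate 1, deletion replicate 2 or wild-type replicate 3 (adjusted p up to 0.0829).

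Within an array, the ratio of 2 homologous subunits does not depend on a factor common to that array. The enzymes were therefore compared through 6 such ratios. Each was taken in a limma fit over all probe sets relative to the subunit in the denominator. The ratios do depend on quantile normalisation, which is not a single factor per array. On the deposited scale RPO31 against RPO21 differed by 0.20 (0.36 as reported) and RPA190 against RPO31 by 0.19 (0.09 as reported). RPA135 against RET1 differed by 0.69 there. The change of RPA135 exceeded that of RET1 by 0.70 on the log2 scale (SE 0.22, adjusted p = 0.0262, against 48.1% of probe sets called relative to RET1). The log2 ratio of RPA135 to RET1 was 0.19, 0.09 and -0.38 on the deletion arrays and -0.48, -0.69 and -1.02 on the wild-type arrays, without overlap. That call was lost without deletion replicate 1, deletion replicate 2 or wild-type replicate 3 (differences of 0.58, 0.63 and 0.55, adjusted p from 0.0876 to 0.0983).

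The other 5 ratios were not called. RPA135 against RPB2 differed by 0.31 (SE 0.20, adjusted p = 0.269) and RET1 against RPB2 by -0.39 (SE 0.22, adjusted p = 0.217), where 27.7% of all probe sets were called relative to RPB2. Among the largest subunits, RPA190 against RPO21 differed by 0.45 (SE 0.22, adjusted p = 0.119) and RPO31 against RPO21 by 0.36 (SE 0.23, adjusted p = 0.243), with 36.6% of probe sets called relative to RPO21. RPA190 against RPO31 differed by 0.09 (SE 0.22, adjusted p = 0.733), with 57.2% called relative to RPO31. With the mean of its plain probe sets in place of the brightest, RPA190 against RPO31 turned to -0.70 (adjusted p = 0.0358) and RPA190 against RPO21 to -0.34 (adjusted p = 0.277). With standard errors of 0.20 to 0.23, differences of 0.45 or less between homologues did not pass the test.

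**Figure D2:**
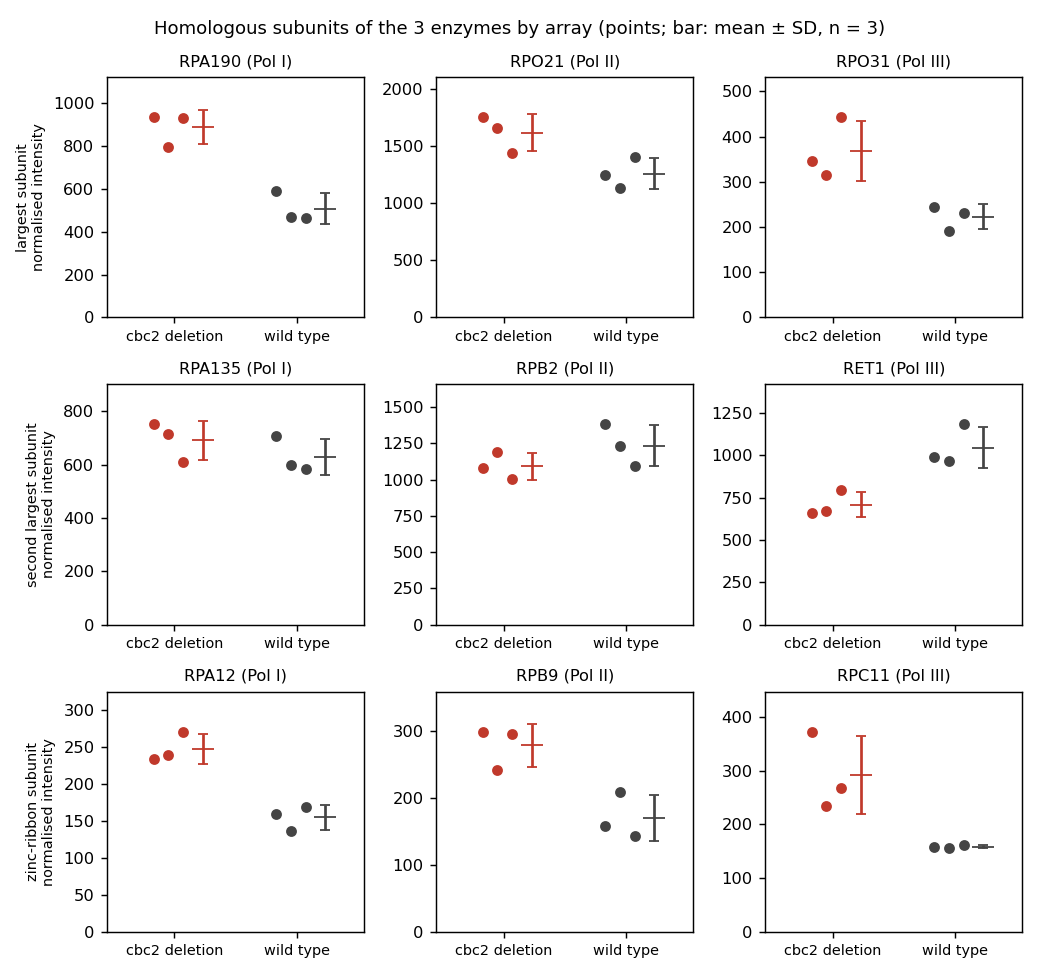
Normalised intensity (vertical axes, linear, starting at 0) of the largest, second largest and zinc-ribbon subunits of the 3 enzymes on each array, with the mean ± SD of 3 arrays beside the points. All 3 zinc-ribbon genes are higher in the deletion strain without overlap, while RET1 is lower and RPA135 and RPB2 overlap. Over all tested genes, the strains do not overlap in 49.8%.

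The small zinc-ribbon subunits, which are homologous and act in cleavage of backtracked transcripts or in fidelity, rose in all 3 enzymes. RPA12 (YJR063W), of Pol I, had 233, 239 and 271 in the deletion strain against 159.6, 136 and 169 in the wild type (log2 fold change 0.68, SE 0.17, adjusted p = 0.0128). RPB9 (YGL070C), of Pol II, had 299, 242 and 296 in the deletion strain against 158, 209 and 143 in the wild type (log2 fold change 0.73, SE 0.19, adjusted p = 0.0175). RPC11 (YDR045C), of Pol III, had 373, 233 and 268 in the deletion strain against 157, 156 and 161 in the wild type (log2 fold change 0.85, SE 0.19, adjusted p = 0.00955). The strains did not overlap in any of them, and deletion replicate 1 was the highest RPC11 array by a wide margin. RPA12 lost the call without wild-type replicate 2 (adjusted p = 0.0517), and RPB9 without deletion replicate 1, wild-type replicate 1 or wild-type replicate 3 (adjusted p up to 0.0663).

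The stalk subunits split within Pol I. RPA43 (YOR340C), which contacts the initiation factor Rrn3, had 247, 173 and 273 in the deletion strain against 140.1, 108 and 126 in the wild type (log2 fold change 0.87, SE 0.21, adjusted p = 0.0118). Its partner RPA14 (YDR156W) had 659, 591 and 522 in the deletion strain against 883, 755 and 874 in the wild type (log2 fold change -0.51, SE 0.16, adjusted p = 0.035). So 1 partner rose and the other fell, each without overlap between strains. The RPA14 call was lost with the arrays scaled to one median (log2 fold change -0.37) and without deletion replicate 2, deletion replicate 3, wild-type replicate 1 or wild-type replicate 3. The Pol II stalk genes RPB4 and RPB7, whose dimer can leave the enzyme, had log2 fold changes of -0.14 and -0.13, and the Pol III stalk genes RPC25 and RPC17 at 0.08 and 0.31. None of these 4 was called and the strains overlapped in each.

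Of the TFIIF-like heterodimers, both Pol I genes and 1 of the 2 Pol III genes rose. RPA49 (YNL248C), of Pol I, had 401, 371 and 397 in the deletion strain against 309, 265 and 244 in the wild type (log2 fold change 0.52, SE 0.16, adjusted p = 0.0322). Its partner RPA34 (YJL148W) had 301, 224 and 272 in the deletion strain against 201, 147 and 151 in the wild type (log2 fold change 0.68, SE 0.19, adjusted p = 0.0232). Both rose without overlap, though RPA49 lost the call without any of 5 of the 6 arrays, wild-type replicate 1 being the exception, and RPA34 without deletion replicate 1, deletion replicate 3, wild-type replicate 2 or wild-type replicate 3. In Pol III, RPC53 (YDL150W) had 294, 151 and 262 in the deletion strain against 158, 104 and 139.7 in the wild type (log2 fold change 0.78, SE 0.27, adjusted p = 0.0477). Deletion replicate 2 lay below wild-type replicate 1, so RPC53 was called although its values overlapped, and it lost the call without deletion replicate 1, deletion replicate 3, wild-type replicate 2 or wild-type replicate 3. Its partner RPC37 stood at -0.37 (adjusted p = 0.138) and averaged 184 ± 29.7 in the deletion strain and 237 ± 23.8 in the wild type (SD, n = 3 each).

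The Pol III specific trimer held the subunit gene with the largest change, RPC31. This gene (YNL151C) had 163, 127 and 178 in the deletion strain against 70.9, 62.1 and 66.3 in the wild type (log2 fold change 1.22, SE 0.19, adjusted p = 0.00153), a 2.33-fold difference. RPC34 (YNR003C), which binds the initiation factor TFIIIB, had 73.7, 73.3 and 58.4 in the deletion strain against 36.8, 37.2 and 30.9 in the wild type (log2 fold change 0.97, SE 0.21, adjusted p = 0.00832). Both rose without overlap, and both are among the dimmer subunit genes, left out when the dimmest 50% of probe sets were removed. The largest member, RPC82, varied within each strain more than between them, with 204, 164 and 112 in the deletion strain and 200.1, 149 and 88.0 in the wild type (log2 fold change 0.17, SE 0.31, adjusted p = 0.706).

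The alpha-like subunits, which start assembly of the enzymes, differed between Pol II and the other enzymes in their calls, a difference that was not tested. RPB11 (YOL005C), of Pol II, had 581, 599 and 379.8 in the deletion strain against 236, 351 and 229 in the wild type (log2 fold change 0.93, SE 0.23, adjusted p = 0.0143). It rose without overlap, deletion replicate 3 lying closest to the wild type, and its call was lost without deletion replicate 1 or wild-type replicate 3. Its partner RPB3 stood at 0.55 (adjusted p = 0.0704), averaging 279 ± 19.5 in the deletion strain and 195 ± 56.4 in the wild type (SD, n = 3 each). RPC40 and RPC19, the alpha-like pair of both Pol I and Pol III, stood at 0.12 (adjusted p = 0.651) and -0.16 (adjusted p = 0.441), with overlapping strains.

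Of the 5 subunits that all enzymes contain, 3 rose. RPB5 (YBR154C), part of the lower jaw, had 560.1, 388 and 471 in the deletion strain against 248, 288 and 238 in the wild type (log2 fold change 0.86, SE 0.18, adjusted p = 0.00668). RPB8 (YOR224C) had 1152, 1044 and 512 in the deletion strain against 412, 459 and 404 in the wild type (log2 fold change 1.00, SE 0.27, adjusted p = 0.0206). RPB10 (YOR210W), a zinc-binding subunit of the assembly platform, had 1271, 1208 and 2069 in the deletion strain against 1012, 739 and 905 in the wild type (log2 fold change 0.74, SE 0.22, adjusted p = 0.0288). No strains overlapped, but deletion replicate 3 was far below the other deletion arrays for RPB8 and far above them for RPB10. The RPB8 call was lost without deletion replicate 1, deletion replicate 2 or wild-type replicate 3, and the RPB10 call without deletion replicate 3, wild-type replicate 2 or wild-type replicate 3. RPO26, whose gene carries an intron, stood at 0.03 (adjusted p = 0.924) and RPC10, another zinc-binding subunit, at -0.23 (adjusted p = 0.343), both with overlapping strains.

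Partner subunits occupy the enzyme in equal number, so the log2 ratio of the partners was followed on each array for all 7 heterodimers, as a description made after the values had been seen. For RPA43 over RPA14 it was 1.34, 0.98 and 1.82 on the deletion arrays, taken relative to the wild-type mean, against 0.10, -0.06 and -0.04 on the wild-type arrays. For RPC37 over RPC53 it was -1.61, -0.74 and -1.11 on the deletion arrays, against -0.12, 0.19 and -0.07 on the wild-type arrays. In these 2 heterodimers the strains did not overlap. In the remaining 5 they did, and the mean shifts lay between -0.38 (RPB3 over RPB11) and 0.28 (RPC40 over RPC19). For RPA43 over RPA14 the separation follows from the opposite, non-overlapping changes of the 2 genes and adds nothing to them. How often the ratios of other gene pairs separate the strains was not counted, and 49.8% of single genes do so.

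**Figure D3:**
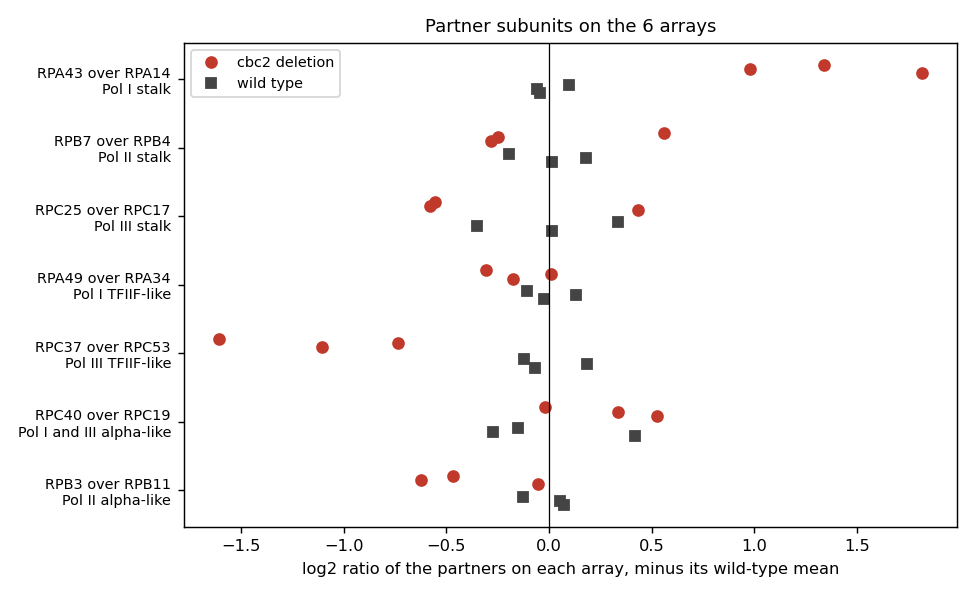
Log2 ratio of the intensities of partner subunits on each array, set to 0 at the mean of the 3 wild-type arrays (horizontal axis), with 3 deletion arrays (red circles) above 3 wild-type arrays (grey squares) in each row. The strains separate for RPA43 over RPA14 (shift 1.38) and RPC37 over RPC53 (shift -1.15), and overlap for the other 5.

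The gene table of assembly R64 places 2 members side by side: RPA43 (YOR340C) and RPA190 (YOR341W) on chromosome XV, on opposite strands as the suffixes of their names show. Both rose, by 0.87 and 0.81. No other subunit genes are neighbours in that table, and the 31 genes lie on 10 chromosomes.

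The factors that bring the polymerases to their promoters were read as 3 lists, beside a share of 32.6% called over all tested genes, and no list was tested as a group. Of 9 Pol I factors 8 were tested, and 2 fell and none rose (median 0.03). RRN3, which links Pol I to its promoter complex through RPA43, had 112, 129.8 and 133 in the deletion strain against 183, 173 and 204 in the wild type (log2 fold change -0.58, SE 0.17, adjusted p = 0.0247). RRN10, of the upstream activating factor, had 119, 113 and 110.0 in the deletion strain against 231, 186 and 177 in the wild type (log2 fold change -0.79, SE 0.17, adjusted p = 0.00751). Both fell without overlap between strains, while RPA43 rose. RRN11, of the core factor, stood at -0.63 (adjusted p = 0.0623). Of 9 Pol III factors 1 rose and none fell (median 0.15). TFC6, a subunit of TFIIIC, had 163, 152 and 213 in the deletion strain against 119.6, 109 and 97.0 in the wild type (log2 fold change 0.69, SE 0.19, adjusted p = 0.0203). MAF1, the repressor of Pol III, stood at 0.59 (adjusted p = 0.136) and TFC4, another TFIIIC subunit, at -0.30 (adjusted p = 0.238).

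Among the 19 general factors of Pol II, 4 rose and none fell (median 0.15), 21.1% called against 32.6% of all tested genes. TFG2, of TFIIF, had 261, 241 and 265 in the deletion strain against 123, 164 and 148 in the wild type (log2 fold change 0.83, SE 0.17, adjusted p = 0.00573), while the TFIIF subunit gene TFG1 stood at 0.11 (adjusted p = 0.650). TFB5, the smallest TFIIH subunit, had 291, 223 and 296 in the deletion strain against 149, 164 and 150.4 in the wild type (log2 fold change 0.80, SE 0.17, adjusted p = 0.00758). TOA1, of TFIIA, had 202, 220.5 and 196 in the deletion strain against 141, 139 and 109.8 in the wild type (log2 fold change 0.67, SE 0.17, adjusted p = 0.0153), and its partner TOA2, named after its values were seen, rose by 0.73 (adjusted p = 0.0472). In TFG2, TFB5 and TOA1 the strains did not overlap. SPT15, the TATA-binding protein that all 3 polymerases use, stood at 0.40 (adjusted p = 0.107). Of 16 elongation and tail factors of Pol II, 2 rose and none fell (median 0.24), 12.5% called, also below the share of all genes. ELF1, an elongation factor, rose by 0.47 (adjusted p = 0.0398) and CTK3, of the tail kinase CTDK-I, by 0.60 (adjusted p = 0.0472). The kinase gene SGV1 stood at 0.61 (adjusted p = 0.0622).

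Of the 9 genes for assembly and nuclear import of the polymerases, 5 were called, 3 lower and 2 higher (median -0.41), beside 32.6% called over all tested genes, 16.3% lower and 16.3% higher. IWR1, which carries assembled Pol II into the nucleus and whose gene has an intron, had 38.3, 41.3 and 67.7 in the deletion strain against 136, 159 and 139.8 in the wild type (log2 fold change -1.61, SE 0.24, adjusted p = 0.00123). RTR1, a phosphatase of the Pol II tail, had 52.4, 48.1 and 37.5 in the deletion strain against 108, 122 and 133 in the wild type (log2 fold change -1.41, SE 0.20, adjusted p = 0.00106). Both fell by more than any subunit gene. NPA3, a GTPase needed for nuclear localisation of Pol II, had 237, 206 and 344 in the deletion strain against 150.1, 141 and 139.7 in the wild type (log2 fold change 0.84, SE 0.21, adjusted p = 0.013). It rose, as did the related GTPase gene GPN3 (0.62, adjusted p = 0.0156), while the assembly factor gene RBA50 fell (-0.61, adjusted p = 0.0182), the last 2 named after their values were seen. The IWR1 and RTR1 calls held in the 18 other settings in which the genes were tested.

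**Figure D4:**
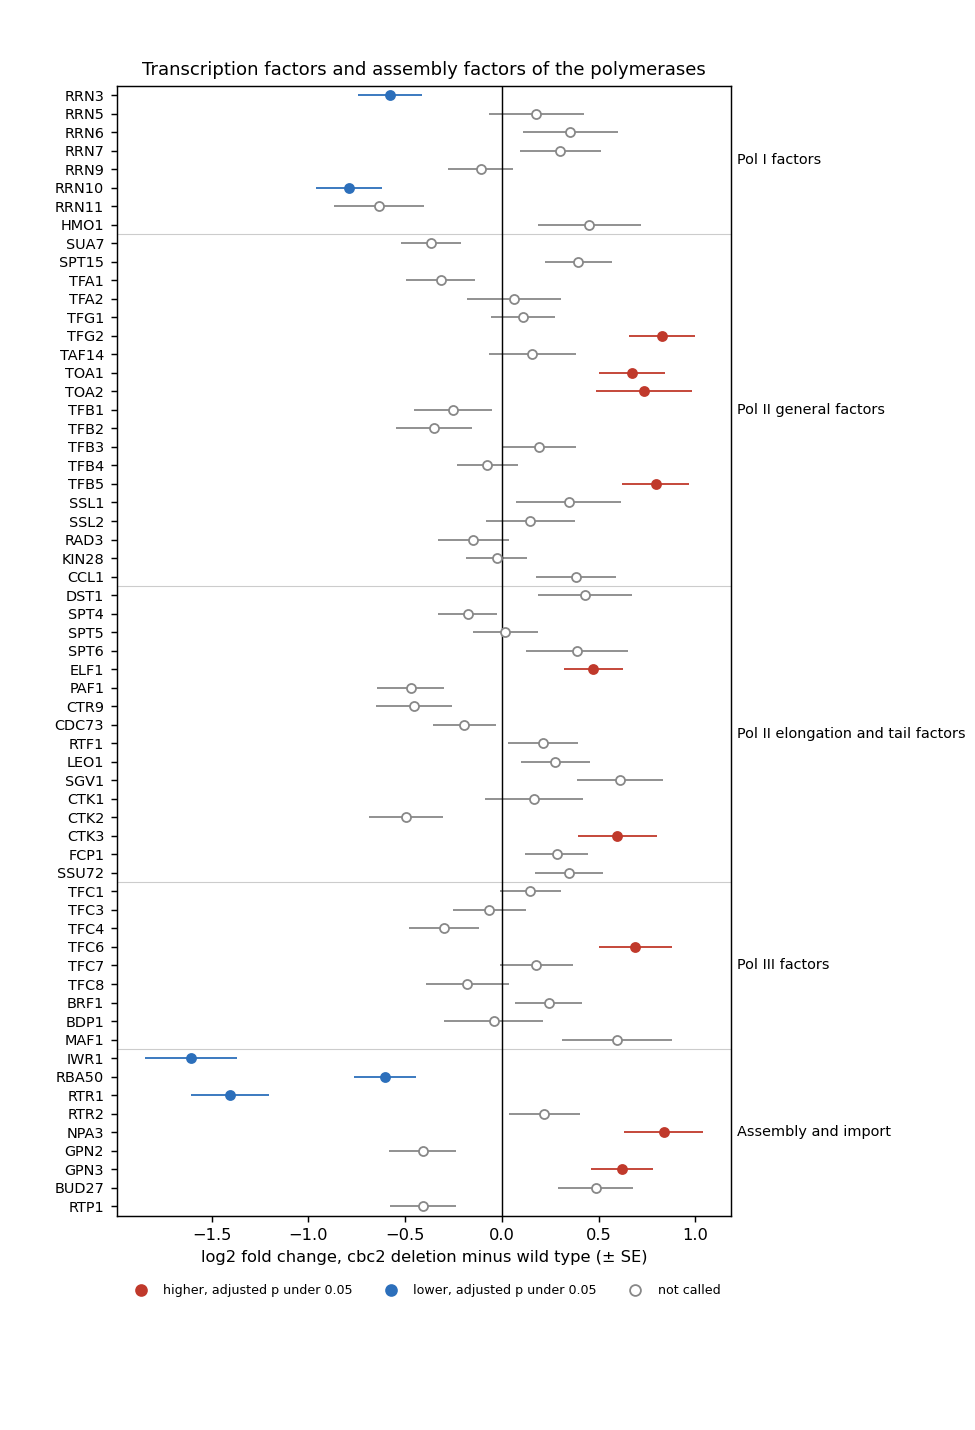
Log2 fold change of the tested promoter, elongation and assembly factors (horizontal axis, deletion minus wild type, bars are SE, 3 arrays per strain), grouped by list. Points that passed the test as lower (blue) are RRN3, RRN10, IWR1, RBA50 and RTR1, and those that passed as higher (red) are TFG2, TOA1, TOA2, TFB5, ELF1, CTK3, TFC6, NPA3 and GPN3.

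Calls of these factor genes rest on the same scaling. On the deposited scale, IWR1 and RTR1 alone among the 14 called factor genes kept the call, and with the fluidics station as a block IWR1, RTR1 and TOA1 did. The 14 genes kept their direction in every setting that tested them. They were picked by their changes on the same arrays, so this is no separate support. Whichever array was left out, 6 genes stayed called: RRN10, TFG2, TFB5, IWR1, RTR1 and NPA3. Here too the share of all tested genes that stayed called was not counted. The other 8 lost the call without at least 1 array: RRN3 without deletion replicate 1 or wild-type replicates 1 or 3, TOA1 without wild-type replicate 3, TFC6 without wild-type replicates 2 or 3, GPN3 without wild-type replicate 2, RBA50 without deletion replicate 1 or wild-type replicate 1, TOA2 and CTK3 without any of 4 arrays each, and ELF1 without any of the 6.

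**Figure D5:**
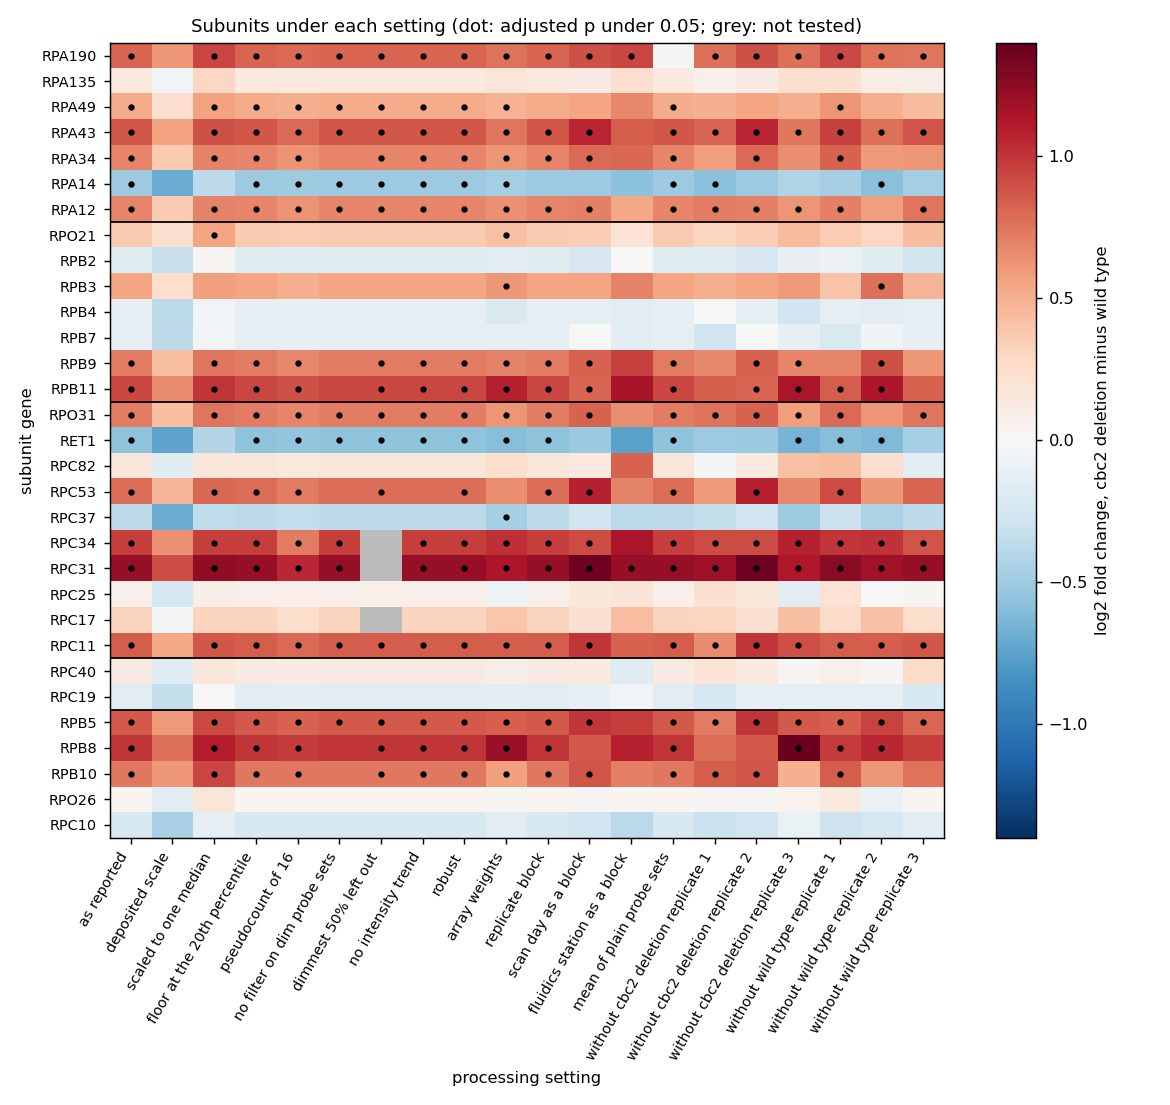
Log2 fold change (colour, deletion minus wild type) of the 31 subunit genes (rows, in the order of the enzymes) under the reported setting and 19 others (columns). A dot marks an adjusted p under 0.05, and grey a gene that was not tested. The 15 risers were picked by their changes under the reported setting. The 15 risers are positive in every column in which they were tested, RPA190 being almost white with the mean of its plain probe sets (0.02), and the dots are absent on the deposited scale and reduced to RPA190 and RPC31 with the fluidics station as a block.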

How the data were processed

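Total RNA from 3 samples per strain was hybridised to 6 Affymetrix Yeast Genome S98 arrays. The authors deposited linear intensities of 9335 probe sets on every array. The sources used here do not give their summarisation and scaling method. The authors also deposited 1 run-information file per array, from which the fluidics station and the scan day were taken.

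The trimmed means of the arrays (2% cut at each end) differed 1.89-fold. Quantile normalisation was therefore applied, after which a shift of total messenger RNA can no longer be seen. The 10th percentile (8.25) served as a floor before the log2 transform. The 60 control probe sets and the dimmest 25% were left out, leaving 6956. Strains were compared with limma 3.58.1 in R 4.3.3 (lmFit, eBayes with an intensity trend), Benjamini-Hochberg adjusted over all tested probe sets, calling at 0.05. Adjusted p-values in the text are from this fit unless another setting is named. For each gene the brightest plain probe set, one whose name carries no cross-hybridisation suffix, was used. Symbols came from the platform annotation: 6504 probe sets had 1 symbol, 328 several and 2503 none. All 6504 matched the R64 gene table by gene ID. With 3 arrays per strain the median SE was 0.20 on the log2 scale, and the number of arrays limits the precision.

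Every subunit gene is named, with values on every array for the called genes and for the largest and second largest subunits. From each list of factors the 3 genes of smallest p are named. The members and lists were chosen with earlier results of these data known. The reported fit used no block, because the labels do not say that a replicate number marks a shared day. The replicate numbers were also checked for pairing: same-numbered arrays deviated from their strain means with correlations of -0.23, -0.09 and 0.08. A search of promoters for motifs that had been planned was not run here.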

Additional observations from a re-analysis of the deposited data

How the results depend on the processing

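Each result was recomputed under 19 other settings. A single value turned its sign as a call: RPA190 against RPO31, at -0.70 (adjusted p = 0.0358) with the mean of the plain probe sets, in which a second, near-background RPA190 probe set enters. On the deposited scale 0 of the 31 genes were called, with 0 in Pol I, Pol II, Pol III and the 7 shared subunits, and the medians were 0.36, 0.22, 0.20 and -0.16 in that order, against -0.27 over all probe sets, of which 728 were called, against 2187 as reported. Scaled to one median, the Pol II median was 0.55 and 16 genes were called higher and 0 lower, beside 2230 of all tested probe sets called. With no filter on dim probe sets 11 genes were called, 0 in Pol II and 1 among the shared subunits, beside 1711 of all probe sets. With the dimmest 50% left out, 28 genes were tested and the Pol III median was 0.17. Array weights gave 4 called Pol II genes, beside 2386 of all tested probe sets. They also called RPA190 against RPO31 (0.31, adjusted p = 0.0474) and RPA135 against RPB2 (0.41, adjusted p = 0.0395). With the scan day as a block RPA135 against RET1 was 0.63 (adjusted p = 0.0884). Blocking on the fluidics station left 2 genes called, 1 in Pol I, 0 in Pol II, 1 in Pol III and 0 shared, the Pol II, Pol III and shared medians were 0.20, 0.68 and 0.023, and 675 probe sets were called. Leaving out 1 array at a time, 8 to 15 genes were called, 3 to 5 in Pol I, 0 to 3 in Pol II, 4 to 6 in Pol III and 1 to 3 shared. Of all tested probe sets 1476 to 1957 were called in these fits. The Pol III median was then 0.44 to 0.62, the shared median 0.022 to 0.27, and RPA135 against RET1 0.55 to 0.87. The replicate block called 15 genes, 4 of 7 in Pol I and 6 of 10 in Pol III, beside 1911 of all tested probe sets. With this block RPA135 against RET1 stayed at 0.70 (adjusted p = 0.00966). With deviations that do not pair the numbers, the block is not read further. Except for RPA190 with the mean of the plain probe sets, the causes of these changes were not tested. The floor, the pseudocount, the missing trend and the robust fit moved none of these counts by over 1.5 times. Changes near the median SE of 0.20 were not detectable with 3 arrays per strain.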
